A study of Arabidopsis thaliana with 8 samples.

Results

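In Arabidopsis thaliana seedlings, 77 nuclear genes had total mRNA at least 4-fold lower after 45 min at 38°C than at 22°C in both biological replicates. They were chosen by that readout: a probe set entered when it was annotated to 1 nuclear gene and its log2 value in heat-stressed total mRNA lay 2 or more below the control value in replicate 1 and again in replicate 2. Of 13415 probe sets of 1 nuclear gene, 81 met this rule, which is 0.604%, and 4 of the 81 are not described here. The 77 probe sets stood for 77 different genes, of 13264 nuclear genes that had a probe set to themselves. Another 91 probe sets that met the rule had no gene listed in the annotation used here and 10 had several genes. The 77 are thus only a part of 182 such probe sets among 22810 (0.798%). Because the fall in total mRNA chose the genes, it is given below as a description without a test.

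The seedlings were of ecotype Columbia-0 in all groups, grown on vertical plates of MS medium under a cycle of 16 h light and 8 h dark, and were 7 days old. Heat stress lasted 45 min at 38°C, and the controls had stayed at the growth temperature of 22°C. Whole frozen seedlings were extracted, so all tissues were mixed, and total RNA and the RNA in the polysome fractions of a sucrose gradient were each hybridized to ATH-1 arrays, which gave 4 groups of 2 arrays and 8 arrays in all. The values are log2 signals, in which a difference of 1 is a factor of 2. The heat-stressed polysome-bound columns also carry a polysome-content factor, with array means of 5.30 and 5.25, against 6.15 to 6.18 on the other 6 arrays. Heat effects in polysome-bound mRNA are therefore given as deposited, where a loss of polysomes shared by all mRNAs is included, and with the factor divided out, where 0 is the average of the array. Each seedling sample gave both RNA fractions, and in whole seedlings less mRNA per cell and fewer cells of a type cannot be told apart. Of 26 marker genes listed for seedling tissues, 5 had a probe set of 1 nuclear gene. Among them PYK10, a beta-glucosidase abundant in roots, stood at 13.26 and 13.23 in total mRNA at 22°C, the root hair expansins EXPA7 and EXPA18 at 5.46 to 6.79, and the stomatal lineage factors SPCH and FMA at 5.25 to 6.09. Of the genes listed as shoot markers, which are those of photosynthesis, none had such a probe set. Photosynthesis genes outside the marker list did. In mean total mRNA at 22°C, RCA stood at 14.1 and LHCB4.1 at 13.8, while LHCB4.3 was dimmer at 7.6.

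Within minutes of a shift to high temperature, plant cells produce mRNAs of chaperones and many mRNAs of growth and housekeeping functions become scarcer. The level of an mRNA reflects both its synthesis and its decay, and a short-lived mRNA can decline quickly when either is altered. Polysomes are mRNAs occupied by several ribosomes, and heat is known to dissociate a large part of them, so that an mRNA can be lost from the polysome fraction because there is less of it, because less of it is engaged by ribosomes, or both.

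The RefSeq table used for names gave a symbol or a used synonym to 11 of the 77 genes, and 66 carried a gene ID only, for which no function is stated here. The named 11 covered the cell wall (EXPA8, GALT29A), organ growth (NGA1), glucosinolates (UGT74B1, GTR2), other transport (NPF6.4, OCT5), chromatin (HTB1) and the chloroplast (CRR21), with DRT100 and P1R1 named but not placed in a group. The genes lay on chromosomes 1 (26 genes), 2 (8), 3 (18), 4 (6) and 5 (19). In 2 pairs, AT3G21670 with AT3G21690 and AT5G57760 with P1R1, the 2 members had 1 gene between them.

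EXPA8 (AT2G40610) encodes an expansin, a protein that loosens cell walls during growth. Its log2 values in total mRNA were 10.25 and 10.98 at 22°C and 7.81 and 8.52 at 38°C. In polysome-bound mRNA they were 10.47 and 11.20 at 22°C and 7.58 and 8.17 at 38°C. Both control values lay above both heat-stressed values in either RNA fraction, and replicate 2 was the brighter at each temperature. The total mRNA changes were -2.44 and -2.46, and polysome-bound mRNA fell by 2.96 as deposited (limma, adjusted p = 0.000683, standard error 0.39, with 2 arrays a group here and below) and was 4.26-fold lower with the factor divided out (limma, adjusted p = 0.0114).

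GALT29A (AT1G08280) encodes a galactosyltransferase that builds the sugar chains of arabinogalactan proteins of the cell wall. Total mRNA values were 7.23 and 7.21 at 22°C and 4.68 and 4.72 at 38°C, and polysome-bound values 7.41 and 7.27 at 22°C and 3.69 and 4.23 at 38°C. Its replicates in total mRNA differed by less than 0.1 at both temperatures, and the fall in polysome-bound mRNA was 5.70-fold with the factor divided out (adjusted p = 0.000417 from limma).

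NGA1 (AT2G46870) encodes a B3-domain transcription factor that limits the growth of leaves and floral organs. It stood at 7.14 and 7.75 in total mRNA at 22°C and at 4.88 and 4.85 at 38°C. Its polysome-bound values were 7.03 and 6.69 at 22°C and 3.96 and 3.64 at 38°C, the groups being apart in both fractions. The total mRNA change of NGA1 was -2.26 and -2.90 in the 2 replicates, and polysome-bound mRNA fell by 2.19 with the factor divided out (standard error 0.23, adjusted p = 0.00131 from limma).

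Glucosinolates are sulfur-containing defence compounds of the cabbage family. UGT74B1 (AT1G24100) encodes a glucosyltransferase of their synthesis, with total mRNA at 9.24 and 9.11 at 22°C and 6.98 and 6.61 at 38°C and polysome-bound mRNA at 8.93 and 8.34 and then 6.13 and 5.86. GTR2 (AT5G62680) encodes a carrier that takes glucosinolates into cells, and its total mRNA was 7.82 and 8.51 at 22°C and 5.70 and 6.23 at 38°C, with polysome-bound values of 7.76 and 8.21 and then 5.16 and 5.48. For both genes the 2 temperatures did not overlap in either fraction, which in total mRNA follows largely from the rule. With the factor divided out, polysome-bound mRNA was 3.42-fold lower for UGT74B1 (adjusted p = 0.00282 from limma) and 3.48-fold lower for GTR2 (adjusted p = 0.00762 from limma). The mean changes in total mRNA were -2.38 and -2.20. GTR1, the close relative of GTR2 in glucosinolate import, was not a member: its total mRNA changed by -1.90 and -2.42, so that 1 replicate missed the limit. GTR1 was looked up for its kinship after the values were known.

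NPF6.4 (AT3G21670) belongs to the nitrate and peptide transporter family, and its replicates lay far apart. In total mRNA it stood at 8.82 and 10.57 at 22°C and at 6.77 and 7.39 at 38°C, and in polysome-bound mRNA at 8.51 and 9.96 and then at 5.97 and 6.79. The groups did not overlap, and replicate 2 was the brighter in all 4 groups. OCT5 (AT1G79410) encodes a carrier of the organic cation and carnitine family. It was less variable, at 6.99 and 6.80 in total mRNA at 22°C against 4.71 and 4.66 at 38°C, and its polysome-bound mRNA fell by 2.20 with the factor divided out (standard error 0.25, adjusted p = 0.00191 from limma).

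HTB1 (AT1G07790) encodes a histone H2B, whose synthesis accompanies DNA replication. Histone H2B genes are nearly alike in sequence and a probe set can take up signal from several of them, so its values are uncertain as to the gene. Total mRNA stood at 9.19 and 9.30 at 22°C and at 6.97 and 6.87 at 38°C, and polysome-bound mRNA at 9.83 and 9.98 and then at 7.01 and 7.21. The replicates lay within 0.2 of each other in each group. Polysome-bound mRNA of HTB1 fell by 2.80 as deposited (standard error 0.14, adjusted p = 5.01e-05 from limma) and was 3.80-fold lower with the factor divided out (adjusted p = 0.000308 from limma). CRR21 (AT5G55740) encodes a pentatricopeptide repeat protein needed for editing of a chloroplast mRNA of the NDH complex, which takes part in cyclic electron flow of photosynthesis. Its total mRNA was 6.93 and 6.92 at 22°C and 4.55 and 4.74 at 38°C, and its polysome-bound mRNA was 3.99-fold lower with the factor divided out (adjusted p = 0.00111 from limma).

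DRT100 (AT3G12610), named for DNA-damage repair and toleration, was bright at 22°C, with 9.88 and 10.19 in total mRNA, and stood at 7.31 and 7.99 at 38°C. P1R1 (AT5G57780) stood at 7.64 and 8.35 and then at 5.09 and 5.92. In both genes the temperatures were apart in total and in polysome-bound mRNA, where with the factor divided out DRT100 was 4.10-fold lower (adjusted p = 0.00406 from limma) and P1R1 5.65-fold lower (adjusted p = 0.00618 from limma).

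**Figure D1:**
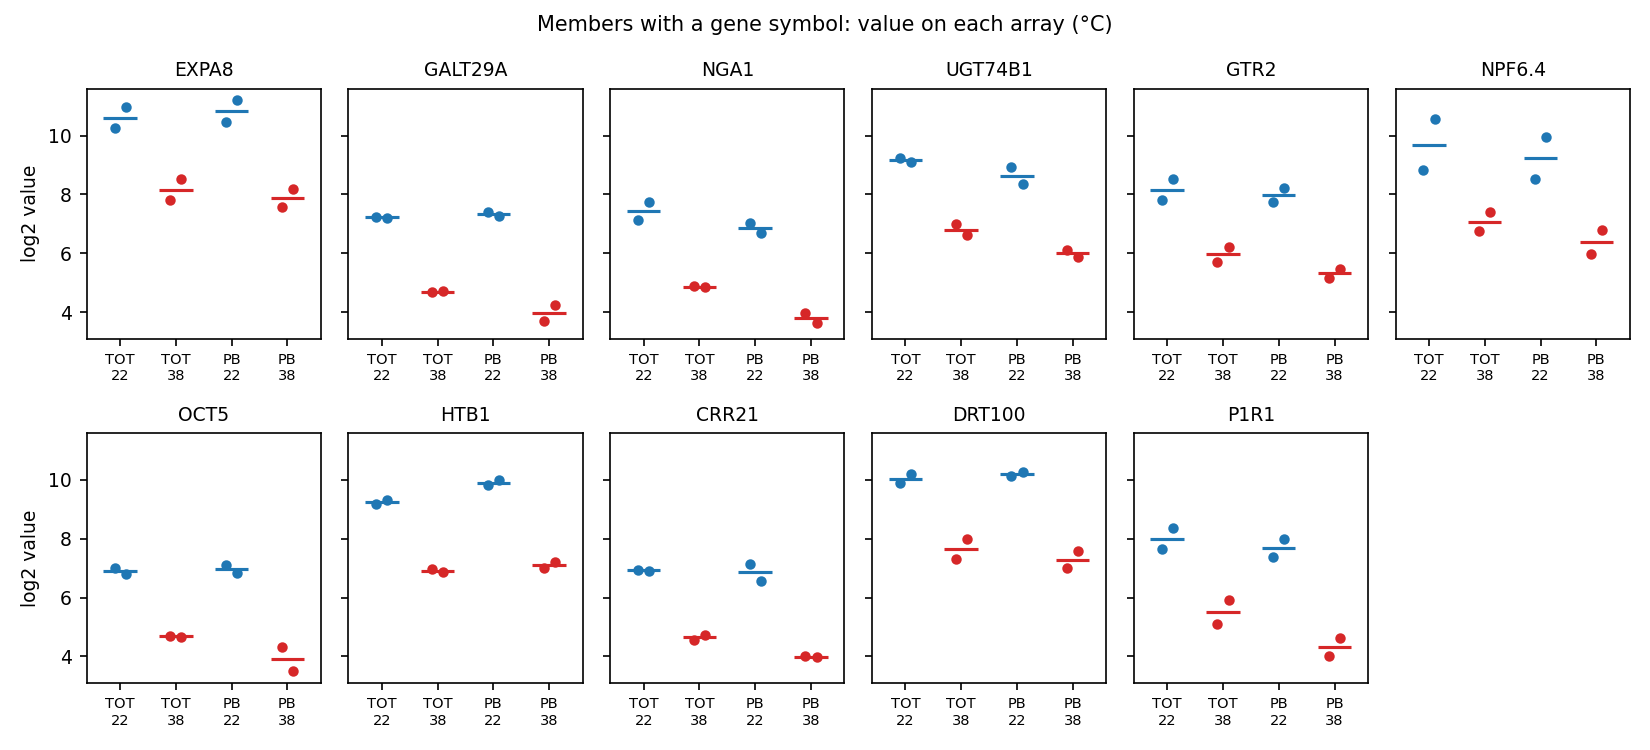
Log2 values (vertical axis) of the 11 named genes on each of the 8 arrays, in total (TOT) and polysome-bound (PB) mRNA at 22°C (blue) and 38°C (red), as deposited; points are arrays, replicate 1 on the left, and bars are means of 2. In each gene both red points lie below both blue points within a fraction, in total mRNA largely by the choice of the genes. The 2 replicates of NPF6.4 at 22°C, at 8.82 and 10.57 in total mRNA, are the farthest apart.

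Before heat, the probe sets of the 77 genes were mostly bright. Their mean total mRNA value at 22°C ran from 5.64 (AT1G64405) to 11.1 (AT1G44000) with a median of 8.15, against a median of 5.70 over all probe sets of 1 nuclear gene, and 76 of the 77 lay above that median. AT1G44000 stood at 10.49 and 11.74 at 22°C and 8.39 and 9.13 at 38°C, and AT4G24780, the next brightest, at 10.86 and 10.90 and then 8.12 and 8.24. After 45 min at 38°C the median of the 77 was 5.51, beside 5.50 over all probe sets of 1 nuclear gene, with 39 above and 38 below the overall median. The group as a whole thus went from bright to average. The 7 probe sets at 10 or above at 22°C were those of AT1G44000, AT4G24780, AT1G14345, EXPA8, AT5G28500, AT5G02480 and DRT100. AT1G14345 stood at 10.56 and 10.77 in total mRNA at 22°C and at 7.79 and 8.50 at 38°C, AT5G28500 at 10.61 and 10.21 and then at 8.52 and 8.10, and AT5G02480 at 10.29 and 10.47 and then at 7.68 and 8.40. Even after heat these 3 lay well above the overall median.

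These values are signals of probe sets, which differ in how well they bind, so they rank probe sets by brightness and not genes by amount of mRNA. The rule also needed a control value at least 2 above the heat-stressed value, so it could not take the dimmest probe sets. None of 4060 probe sets with a total mRNA value at 22°C under 4 was a member, and 1 of 3139 between 4 and 6 was (0.0319%). The share was 0.976% between 6 and 8 (37 of 3792), 1.69% between 8 and 10 (32 of 1889) and 1.31% from 10 upward (7 of 535). At the dim end, 3 control probe sets of the array for bacterial trp genes had a median of 2.88 in heat-stressed total mRNA, and 4 members lay within 1 of that value and 24 within 2, where the size of a fall is uncertain. Polysome-bound mRNA at 22°C, on arrays that the rule did not use, had a median of 8.24 for the members beside 5.68 for all probe sets of 1 nuclear gene. Those arrays carry the same probe sets and RNA of the same seedling samples, so this median is not independent of the choice.

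**Figure D2:**
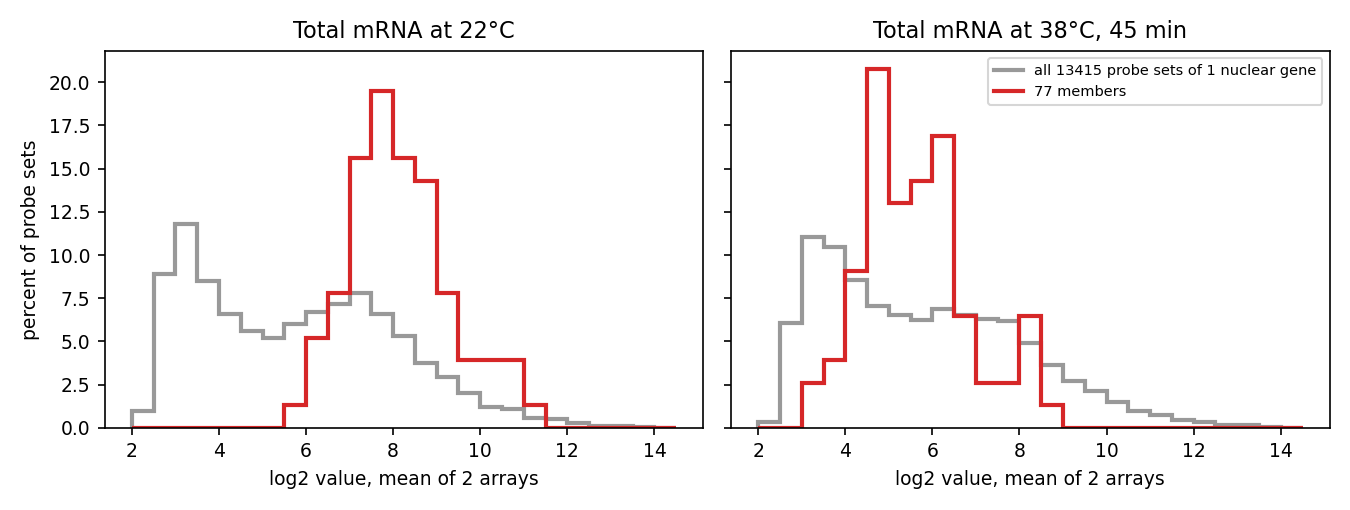
Percent of probe sets (vertical axis) by log2 value in total mRNA, mean of 2 arrays (horizontal axis), for the 77 genes (red) and all 13415 probe sets of 1 nuclear gene (grey) at 22°C and at 38°C. At 22°C the red outline lies to the right, with medians of 8.15 and 5.70, and at 38°C both medians are about 5.50.

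The mean change in total mRNA ran from -3.51 (AT3G61820, 11.4-fold lower) to -2.04 (AT2G14660, 4.10-fold lower), with a median of -2.45, or 5.46-fold. In 7 genes it was -3 or lower, in 27 between -3 and -2.5 and in 43 between -2.5 and -2. The larger fall was in replicate 1 in 39 genes and in replicate 2 in 37, and 1 gene had equal falls. The 2 replicates gave falls within 0.5 of each other in 60 genes and more than 1 apart in 5.

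AT3G61820, with the largest mean fall, stood in total mRNA at 9.66 and 9.45 at 22°C and at 6.24 and 5.85 at 38°C. AT5G41140 followed with 6.33 and 6.80 and then 3.06 and 3.23, the heat-stressed values being close to those of the bacterial control probe sets. AT5G66985 went from 7.22 and 7.25 to 3.97 and 3.83. In all 3 genes the replicate falls differed by no more than 0.3, and all 3 carry a gene ID only. AT2G14460 stood at 7.36 and 7.33 at 22°C and at 4.05 on both arrays at 38°C, and AT3G04760 at 9.20 and 9.22 and then at 5.88 and 5.99. In polysome-bound mRNA with the factor divided out these 5 genes fell, with changes from -3.82 (AT5G66985) to -2.65 (AT3G04760), and with the largest of the 5 adjusted p-values at 0.00147 from limma.

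The 6th and 7th largest falls were those of AT1G48330, with changes of -3.79 and -2.61 in total mRNA, and AT3G50270, with -3.02 and -3.26. They were followed by AT1G70200, AT3G01660, AT1G54820, AT3G45210, AT1G06000, AT5G45700, AT5G49760, AT1G23205, AT3G28040, AT2G44940, AT5G01790, AT4G39840 and AT5G44410, whose mean changes ran from -2.98 to -2.77. No gene with a symbol was among these 20. The first of the named genes, NPF6.4, came 28th with a mean change of -2.62, and NGA1 came 29th.

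At the limit of the rule, AT3G09580 (-2.30 and -2), AT5G46230 (-2 and -2.97) and AT2G14660 (-2.01 and -2.06) were just inside. AT3G24080 (-2.91 and -1.98), AT5G53020 (-1.98 and -2.49) and AT4G15830 (-1.97 and -2.42) were just outside. The genes on either side of the limit overlapped in mean change, which ran from -2.49 to -2.04 inside and from -2.45 to -2.20 outside, so membership at the edge rested on small differences in 1 replicate. Array medians in total mRNA were 6.16 and 6.19 at 22°C and 5.94 and 5.98 at 38°C, and with each array centred on its median 44 genes met the rule, all of them among the 77.

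Members that belong to none of these extremes carried a gene ID only. Those with a mean change in total mRNA between -2.69 and -2.42 were AT3G02640, AT1G15260, AT1G73630, AT3G52740, AT1G18810, AT1G14345, AT4G34220, AT5G02890, AT3G15680, AT5G67390 and AT3G59670. Those between -2.37 and -2.26 were AT4G02800, AT5G65860, AT1G31920, AT1G28600, AT5G02480, AT3G13690, AT1G21590, AT3G51280, AT1G12120 and AT2G40435. Those between -2.17 and -2.04 were AT1G78210, AT2G26730, AT3G62110, AT1G10850, AT4G28080, AT5G28500, AT3G10080, AT2G39710, AT1G27930 and AT4G30020. All of these genes fell in polysome-bound mRNA with the factor divided out, from AT3G52740 with a change of -2.85 to AT4G28080 with a change of -1.85, and the largest adjusted p among them was 0.0155 from limma (AT4G28080).

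**Figure D3:**
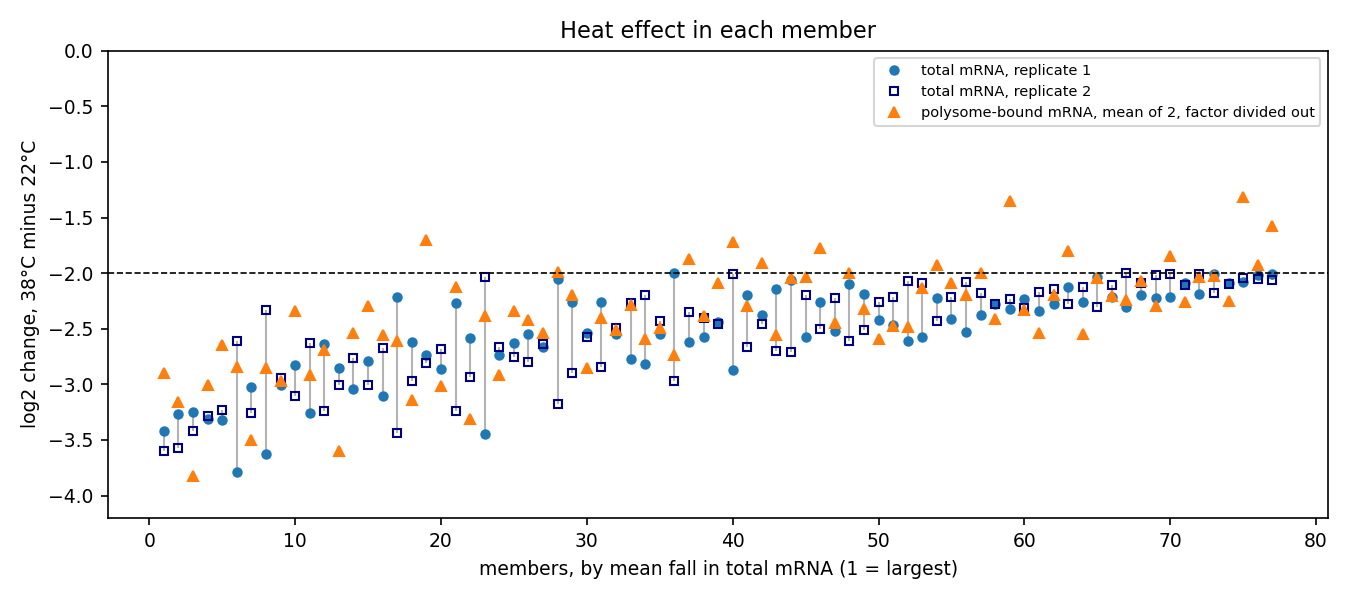
Log2 change, 38°C minus 22°C (vertical axis), of each of the 77 genes ranked by mean fall in total mRNA (horizontal axis), in replicate 1 (filled circles) and replicate 2 (open squares) of total mRNA and as the mean of 2 in polysome-bound mRNA with the factor divided out (triangles); the dashed line is the rule's limit of -2. All circles and squares lie on or below the line by choice, and 63 of the 77 triangles do.

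Changes of the same mRNAs in the polysome fraction were taken from the polysome-bound arrays, which the rule did not use. A fall was called at an adjusted p under 0.05 from limma and at least 2-fold. The model also held the total mRNA arrays, so its estimate of the spread came partly from arrays that chose the genes. A fit of the polysome-bound arrays only, as deposited, also called 76 of the 77. No such fit is given with the factor divided out. As deposited, 76 of the 77 genes fell in polysome-bound mRNA, beside 37.1% of all 22810 probe sets, and the median change was -3.21 (range -4.69 to -2.19) against -0.84 over probe sets of 1 nuclear gene. With the factor divided out, 73 of the 77 fell, beside 6.49% of all probe sets. Their median change was then -2.34, from -3.82 (AT5G66985) to -1.32 (AT3G21690), against 0.03 over probe sets of 1 nuclear gene, and 63 of the 77 changed by -2 or lower. In 76 genes both heat-stressed values lay below both control values after the factor was divided out, beside 31.1% of all probe sets. The polysome-bound RNA was of the same seedling samples as the total RNA, and over all probe sets the difference between replicates in 1 fraction went with that in the other, with an r across probe sets of 0.79 at 22°C and 0.76 at 38°C, so the 2 readouts share the variation between samples. Probe sets are not independent, and this r is a description. The calls are also not independent of the choice by total mRNA. Of 573 probe sets with total mRNA 2- to 4-fold lower in both replicates, 69.1% were called with the factor divided out. Whether the members fell beyond what their total mRNA change would give was not tested.

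The gene with overlapping polysome-bound values was AT5G62360, which is also the gene that was not called as deposited. It stood at 10.91 in replicate 1 and 6.87 in replicate 2 of total mRNA at 22°C and at 8.38 and 4.79 at 38°C. Polysome-bound values were 11.05 and 7.26 at 22°C and 7.92 and 4.26 at 38°C. Replicate 1 was thus more than 3 brighter than replicate 2 on each pair of arrays, and within each replicate the value was more than 2 lower after heat. The polysome-bound change was -3.07 as deposited (standard error 2.03, adjusted p = 0.192 from limma) and -2.20 with the factor divided out (adjusted p = 0.489 from limma). That model has no term for replicate, so its standard error takes in the gap between replicates. Within the replicates the change with the factor divided out was -2.29 and -2.11. With a term for replicate added, AT5G62360 was called (limma, adjusted p = 2.22e-06 as deposited and 2.54e-05 with the factor divided out).

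A further 3 genes were called as deposited and not with the factor divided out. AT1G48330 changed by -2.84 (standard error 0.87, adjusted p = 0.0600 from limma), AT1G53035 by -2.39 (standard error 0.81, adjusted p = 0.0787 from limma) and NPF6.4 by -1.99 (standard error 0.69, adjusted p = 0.0852 from limma). Together with AT5G62360 they had the largest gaps between the control replicates in total mRNA of all 77, from 1.75 (NPF6.4) to 4.04 (AT5G62360), where the median gap of the members was 0.31 and the next largest was 1.25 (AT1G44000). AT1G48330 stood at 8.61 and 6.59 in total mRNA at 22°C and AT1G53035 at 8.20 and 6.23, replicate 1 being the brighter in both, while in NPF6.4 it was replicate 2. A fit without 1 polysome-bound array leaves 1 array in its group, so no count of falls from such a fit is given. With a term for replicate in the model and the factor divided out, all 77 were called, beside 7.5% of all probe sets. The genes not called without that term were thus called with it.

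The heat effect in polysome-bound mRNA was next set against that in total mRNA, both relative to the array average. The difference contains the total mRNA change that chose the genes, and selection for large falls pushes it upward, so no test is given. Its median over the 77 was 0.13, with 0.07 in replicate 1 and 0.32 in replicate 2, against -0.01 over all probe sets of 1 nuclear gene. In 62 genes it lay within 0.5 of 0, in 13 above 0.5 and in 2 below -0.5. It was above 0 in both replicates in 33 genes, below 0 in both in 13 and of opposite sign in 31. For most of the genes the drop in the polysome fraction was about as large as that in total mRNA once the shared loss of polysomes was divided out. The mRNAs also varied in how much of them was on polysomes before heat: polysome-bound minus total value at 22°C ran from -1.32 (AT2G14460) to 1.05 (AT1G73630). AT2G14460 stood at 6.30 and 5.75 in polysome-bound mRNA at 22°C, against 7.36 and 7.33 in total mRNA, and AT1G73630 at 8.42 and 8.96, against 7.30 and 7.98. Their differences between heat effects, 0.29 and 0.11, were nevertheless within 0.5 of 0.

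AT4G39840 had the highest difference, at 1.07. In total mRNA it stood at 7.88 and 7.96 at 22°C and at 5.14 and 5.15 at 38°C, and in polysome-bound mRNA at 7.70 and 7.63 and then, as deposited, at 4.94 and 5.25. Its total mRNA was 6.84-fold lower and its polysome-bound mRNA 3.25-fold lower with the factor divided out. AT5G02940 (0.92), AT3G21690 (0.74), AT1G71070 (0.72) and AT1G51805 (0.63) came next. AT5G02940 and AT3G21690 were low in polysomes relative to total mRNA already at 22°C, by -0.83 and -0.81, where the median of the members was 0.04. Each of the 5 had a difference above 0 in both replicates.

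At the other end, AT5G45700 had a difference of -0.67. It stood in total mRNA at 6.86 and 6.54 at 22°C and at 4.01 and 3.53 at 38°C, and in polysome-bound mRNA at 7.03 and 6.62 and then, as deposited, at 2.62 and 2.09. Its heat-stressed polysome-bound values were among the dimmest of the members, whose lowest mean over both arrays was that of AT2G14460, at 2.14 and 2.17. AT5G59350 (-0.55), AT5G66985 (-0.49), AT1G55265 (-0.36) and AT3G50270 (-0.36) followed, and of these 5 AT5G59350 had differences of opposite sign in the 2 replicates, -1.18 and 0.07.

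**Figure D4:**
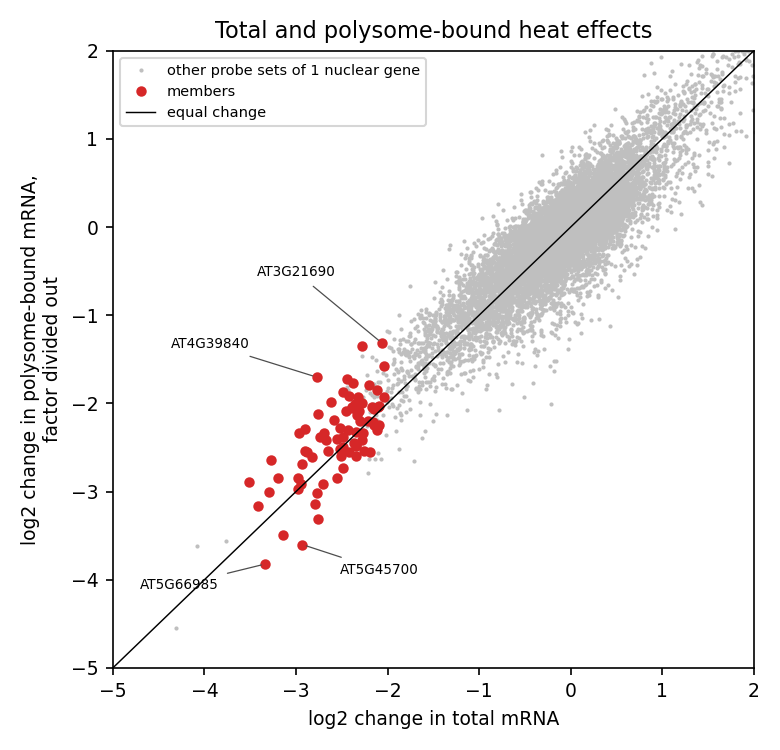
Mean log2 change in polysome-bound mRNA with the factor divided out (vertical axis) against that in total mRNA (horizontal axis) for the 77 genes (red) and the other probe sets of 1 nuclear gene (grey; changes above 2 are not drawn); the line marks equal change. The red points follow the line with a median distance of 0.13 above it, from 1.07 above (AT4G39840) to 0.67 below (AT5G45700).

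Other classes of probe sets give the scale for these differences. The 573 probe sets of 1 nuclear gene with total mRNA 2- to 4-fold lower in both replicates had a median difference of 0.18 and a median polysome-bound change of -1.29 with the factor divided out, and 396 of them (69.1%) fell in polysome-bound mRNA. Their median total mRNA value at 22°C was 7.37. The 179 with total mRNA at least 4-fold higher in both replicates had a median difference of -0.01 and a median total mRNA value at 22°C of 6.17. Whether the members differed from these groups was not tested.

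Gene lists by symbol place some of the named members among their relatives, while GALT29A, NPF6.4, DRT100 and P1R1 are in none of the lists. Genes that met the rule are left out of the list counts, since the rule used their total mRNA. Of 80 other cell wall genes with a probe set of 1 nuclear gene, 8 fell and 4 rose in total mRNA by the limma call, beside 5.47% and 4.08% of all 13334 probe sets of 1 nuclear gene outside the rule. In polysome-bound mRNA with the factor divided out 10 fell and 3 rose, beside 5.4% and 4.12%. Among them were 17 expansins, of which 2 fell and 3 rose in both fractions. EXPA4 and EXPA15 fell, with mean changes of -2.22 and -2.15 in total mRNA, and missed the rule in 1 replicate each, at -1.83 and -1.96. EXLA1, EXLA2 and EXPA16 rose, by 2.43, 1.37 and 2.81. The expansin family thus held genes of both directions beside EXPA8.

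Of 25 other genes placed by symbol under the cell cycle, histones and cytoskeleton, 4 fell and none rose in total mRNA, beside the same 5.47% and 4.08%. Their median change was -0.56 against 0.07 outside the rule. Placement rested on symbols alone, so some genes, such as CKS, may not belong, and the list held tubulins but no cyclins. In polysome-bound mRNA with the factor divided out 4 fell and none rose, beside 5.4% and 4.12%. HTB11, another H2B gene, fell, with a change of -1.65 in total mRNA and of -1.42 in polysome-bound mRNA with the factor divided out, and HTB4 changed by -0.22 in total mRNA. The probe sets of these H2B genes thus gave different values. Each may still take up signal from other H2B genes, so they are not read as separate evidence. Of 25 other genes of light, photosynthesis and the clock, 2 fell and 1 rose in total mRNA, beside 5.47% and 4.08%. The 2 were CRR41 and CRR42, named like CRR21 for chlororespiratory reduction, with mean changes of -1.52 and -1.06, while CRR22 (-0.05, adjusted p = 0.818 from limma) and CRR28 (-0.62, adjusted p = 0.113 from limma) did not pass the test. Of 24 genes of auxin and growth, none of them a member, 1 fell and 2 rose, beside the same shares. The members and these lists were chosen with results of these data known, so the counts describe the lists and carry no test of them.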

How the data were processed

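Total and polysome-bound mRNA of 4 groups was measured on 8 ATH-1 arrays. The log2 values were computed and deposited by the authors, whose processing notes name RMA and affy, versions not given, and heat-stressed polysome-bound values had been multiplied by the polysome content. This factor was divided out where stated. The number of arrays limits the precision.

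All 8 arrays entered 1 linear model in limma 3.58.1 (R 4.3.3; lmFit, eBayes) with a mean for each group and 4 residual degrees of freedom, and p-values were adjusted by Benjamini-Hochberg across 22810 probe sets. Calls needed at least 2-fold and an adjusted p below 0.05. The fit was tested on simulated data. Python 3.11.15 (pandas 2.3.3, numpy 2.4.6; plots by matplotlib 3.10.9) made the tables.

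Replicates were matched across temperatures by number, as the rule requires. Names came from the platform annotation and a RefSeq table of TAIR10.1, which held 13436 of 13513 probe sets with 1 gene. Genes named are the 20 largest falls, up to 3 members of each list by level, the 5 lowest and 5 highest differences, 3 on each side of the limit and members not called with the factor divided out. The remaining members are named to account for all 77, and relatives of members were named after their values were seen. Members and lists were chosen with earlier results of these data known. Lists were built from symbols alone, and promoter motifs, though planned, were not analysed here. Alternatives covered the factor, the scaling, a filter on dim probe sets, the test, the replicate block and single arrays.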

Additional observations from a re-analysis of the deposited data

How the results depend on the processing

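The count of members that fell in polysome-bound mRNA (76 of 77) was 73 with the factor divided out (background 6.49%). It was 72 after centring each array on its median or cyclic loess (background 4.71% and 4.92%). Among probe sets with a group mean of at least 6 it was 75 of 76 (background 49.1%). With polysome-bound arrays only it was 76 (background 37.4%), as it was by limma's treat against 1.5-fold (background 30.4%). Fits with 1 array left out, some of them chosen after seeing the data, leave 1 array in a group, so no counts from them are given. The authors took the ratio of polysome content, heat against control, within each biological replicate, which pairs the temperatures by replicate. They do not state that the seedlings of a pair were grown together, and the main model does not use the pairing. Between the temperatures, the differences between replicates correlated across probe sets at 0.52 (total) and 0.44 (polysome-bound). With the replicate block 77 of 77 fell (background 38.1%), and 77 also with the factor divided out and the block (background 7.5%), the 4 genes not called without it included. The number of genes meeting the rule was 121 on the mean of both replicates, 220 at a limit of -1.5, 24 at -2.5, 44 after centring and 52 with crossed replicate numbers, 43 of them among the 77. The median difference between heat effects was -0.74 with the factor kept, 0.25 over 38 members of at least 6 at 38°C, and 0.0717 (without replicate 2) to 0.324 (without replicate 1). The median value at 22°C was 8.07 to 8.23 by replicate. Over the 77 members and 1231 comparisons of a member's polysome-bound change with an alternative, the direction was the same in each and the call in 1218: 11 lost it (AT1G48330, AT1G53035 and AT3G21670 with the factor divided out, centred arrays and loess, and AT5G02940 with the last 2, at adjusted p-values of 0.0523 and 0.0550) and 2 gained it (AT5G62360 with the block, with and without the factor). The cause was not tested.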

Other observations

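Other gene lists held members too, and genes that met the rule are again left out of the counts. Of 49 other UDP-glycosyltransferases, enzymes that attach sugars to small molecules, 5 fell and 2 rose in total mRNA, beside 5.47% and 4.08% of all probe sets of 1 nuclear gene outside the rule. UGT72B3 (-1.77 on the log2 scale) and UGT85A2 (-1.74) were among those that fell, while UGT73C1 (2.25) and UGT71C2 (2.11) rose. UGT78D1, an enzyme of flavonol glycoside synthesis, fell, with a change of -1.65 in total mRNA and of -2.13 in polysome-bound mRNA with the factor divided out (standard error 0.23, adjusted p = 0.00144 from limma). Of 30 other carriers of ions and solutes, 4 fell and 1 rose, beside the same shares. Besides the members OCT5 and GTR2 and the near-member GTR1, SWEET13, a sucrose carrier, fell by 1.89, and SWEET1, a glucose carrier, rose by 1.54.

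Of 84 transcription factors other than NGA1, 2 fell and 4 rose in total mRNA, beside 5.47% and 4.08%. The relatives of NGA1 did not share its fall: total mRNA changed by -0.04 in NGA2, -0.39 in NGA3 and 0.405 in NGA4. NGA3 and NGA4 were dim at 22°C, at 4.08 and 4.145. MYC4, a factor of the jasmonate response, fell by 1.29 from a dim 5.17 at 22°C. BZIP28, a factor of the unfolded protein response, rose by 2.05 and STZ, a zinc-finger transcription factor of the stress response, by 2.61. Among 24 genes of auxin and growth, BRH1 had a mean change of -2.16 in total mRNA and EXO, a protein of brassinosteroid-promoted growth, rose by 2.45. The genes named here were picked after their values were seen, from lists drawn up with earlier results known, and none of the lists was tested as a set.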
